A study of Homo sapiens with 6 samples.

Results

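The peaks described here are those of SATB1 after exposure to amyloid-β (Aβ1–42) that lay outside Alu elements. A peak of the SATB1 Aβ1–42 list was kept if it lay on chromosomes 1 to 22 or X and its hg38 sequence did not match a 287 nt Alu copy in the APP gene on either strand (blastn, e-value of 1e-05). Of 5817 peaks on these chromosomes, 1451 were kept, which is 24.9% (exact 95% interval 23.8 to 26.1%). The same rule kept 2646 of the 2792 SATB1 peaks of vehicle-treated cells, or 94.8% (93.9 to 95.6%). For scale, it kept 104491 of 116446 windows of 125 nt taken at regular steps along the genome, or 89.7%. The rule used sequence and not signal. For 1410 of the 1451 peaks no match was found even at the most permissive search, up to an e-value of 10, and the other 41 had a weaker match. Just inside the threshold, the lowest e-value above it was 1.09e-04 among the kept peaks, and just outside, the highest among the Alu-matching peaks was 8.91e-06. For 1 kept peak the permissive search gave 7.31e-07 although the search at the threshold did not report it.

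SH-SY5Y, a human neuroblastoma cell line, carried a stably expressed 82-kDa ChAT, the nuclear form of choline acetyltransferase, in every group. Cells were differentiated with retinoic acid for 3 days and then given 100 nM oligomeric Aβ1–42 or the vehicle, Ham's F-12 medium, for 4 h. Chromatin from 3 plates per treatment was precipitated with antibodies to SATB1 or to ChAT, with 1 sequenced library for each protein and treatment. With 1 library per group no test between treatments was possible, and each interval below describes counting error within a single library. The study's methods give the sequencing depth only as a range for all samples, not for each list, and the identity of the cells could not be checked from peaks. The stable line and the single cell type limit both treatments alike.

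SATB1 is a nuclear protein that folds chromatin by holding AT-rich stretches, known as scaffolding or matrix attachment regions (S/MARs), at the nuclear matrix. It recognises an ATC sequence context in which one strand is free of G over a run of A, T and C, and unpairing of the helix marks its sites. Alu and L1 are interspersed repeats copied across the genome by retrotransposition. Alpha satellite is the tandem repeat of centromeres, and satellites II and III, built from CATTC pentamers, lie in the heterochromatin beside some of them.

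Sequences that show what these peaks contained are given first, on the plus strand of hg38. The first pair shows the satellites that recurred in the list: a CATTC-rich peak at chr10:38517290-38517573 that was also in the SATB1 vehicle list and both ChAT lists, with CATTC or GAATG in capitals, and a peak of the largest family at chr19:26917119-26917408. In the second sequence and in all those after it, capitals mark each C or G with 3 A or T on both sides, the core of an SATB1 site as searched here, unless said otherwise.
CATTC-rich peak, chr10: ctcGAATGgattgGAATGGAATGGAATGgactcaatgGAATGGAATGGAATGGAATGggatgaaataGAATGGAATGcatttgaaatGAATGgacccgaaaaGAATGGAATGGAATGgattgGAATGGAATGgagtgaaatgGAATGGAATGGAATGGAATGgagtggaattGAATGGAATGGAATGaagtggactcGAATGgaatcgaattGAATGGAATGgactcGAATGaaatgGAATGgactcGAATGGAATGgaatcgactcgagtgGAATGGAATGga
Largest family, chr19: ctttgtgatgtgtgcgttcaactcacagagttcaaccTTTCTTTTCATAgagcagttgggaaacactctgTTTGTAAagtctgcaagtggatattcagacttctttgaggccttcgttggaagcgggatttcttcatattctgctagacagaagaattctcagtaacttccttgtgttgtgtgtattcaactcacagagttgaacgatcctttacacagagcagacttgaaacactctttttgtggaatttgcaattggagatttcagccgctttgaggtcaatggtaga
The next pair shows the highest-scoring member of the largest family (chr17:24993435-24993496) and a peak in which an Alu tail ends (chr7:6282617-6282673), also found by ChAT after Aβ1–42.
Largest family, chr17: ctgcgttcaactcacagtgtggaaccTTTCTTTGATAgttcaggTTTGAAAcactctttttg
Alu end, chr7: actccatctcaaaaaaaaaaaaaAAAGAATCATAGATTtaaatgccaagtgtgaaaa
The last set gives the highest-scoring printable peak of other kinds. They are a short tandem repeat in an intron of TYW1 (chr7:67210923-67210986, longest run in capitals) and an intergenic single-copy peak (chr7:34307280-34307334). After these come a single-copy peak kept from vehicle to Aβ1–42 in an intron of ANAPC16 (chr10:72225987-72226045) and a peak upstream of the olfactory receptor gene OR4M1 (chr14:19778665-19778726). The ANAPC16 peak had an Alu match within 250 nt. Near the end of its sequence a run of T leads into TGAGAC, the reverse complement of GTCTCA, which ends an Alu.
Tandem repeat, chr7: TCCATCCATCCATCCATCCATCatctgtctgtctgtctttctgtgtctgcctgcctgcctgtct
Single-copy, chr7: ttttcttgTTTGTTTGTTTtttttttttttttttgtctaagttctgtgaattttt
Shared with vehicle, chr10: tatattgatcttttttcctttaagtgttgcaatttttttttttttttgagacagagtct
Promoter, chr14: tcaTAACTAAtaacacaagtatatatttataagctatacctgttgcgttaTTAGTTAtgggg

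The peaks were short and weakly separated from the calling threshold. Their median length was 125 nt (quartiles 99 and 148 nt), against 129 nt for vehicle, and the longest spanned 5615 nt. MACS scored each peak by its p-value, as -10 times the log10 of p. The median score was 65.6 (quartiles 57.3 and 74.4), with a range of 50.02 to 236. Scores rank peaks within 1 list and are not compared between lists. Median scores were highest in the shortest peaks: the 50 peaks of up to 60 nt had a median score of 99.6, the 246 peaks of 150 to 300 nt one of 60.4 and the 79 longer peaks one of 66.8.

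Repeated sequence was common in the list. CATTC-rich peaks, with at least 3 CATTC or GAATG pentamers per 100 nt, numbered 76, or 5.24% (4.15 to 6.51%). A short peak can meet this with few pentamers, so not all of the class need be satellite. One of 55 nt at chr7:79653195-79653249, with a score of 145.49, held 3.64 per 100 nt and no 51-mer that recurred in hg38. A further 409 peaks (28.2%, 25.9 to 30.6%) were multi-copy, meaning that over 50% of their 51-mers recurred elsewhere in hg38. Short tandem repeats, with an unbroken run of at least 20 nt of a unit of 1 to 6 nt, gave 72 more (4.96%, 3.90 to 6.21%). The remaining 894 peaks (61.6%, 59.1 to 64.1%) are called single-copy below. Among the genome windows the same classes held 0.181%, 7.62%, 1.19% and 91.0%, so each repeated class was more common in the peaks than in the windows. The SATB1 vehicle peaks divided almost alike, with 4.61% CATTC-rich, 28.5% other multi-copy, 4.27% tandem repeats and 62.6% single-copy. None of the 4 differences between treatments was resolved from 0 by counting: the difference in single-copy share, Aβ1–42 less vehicle, was -0.972 percentage points (-4.09 to 2.12). The larger differences lay in which repeats were found and where along them.

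**Figure D1:**
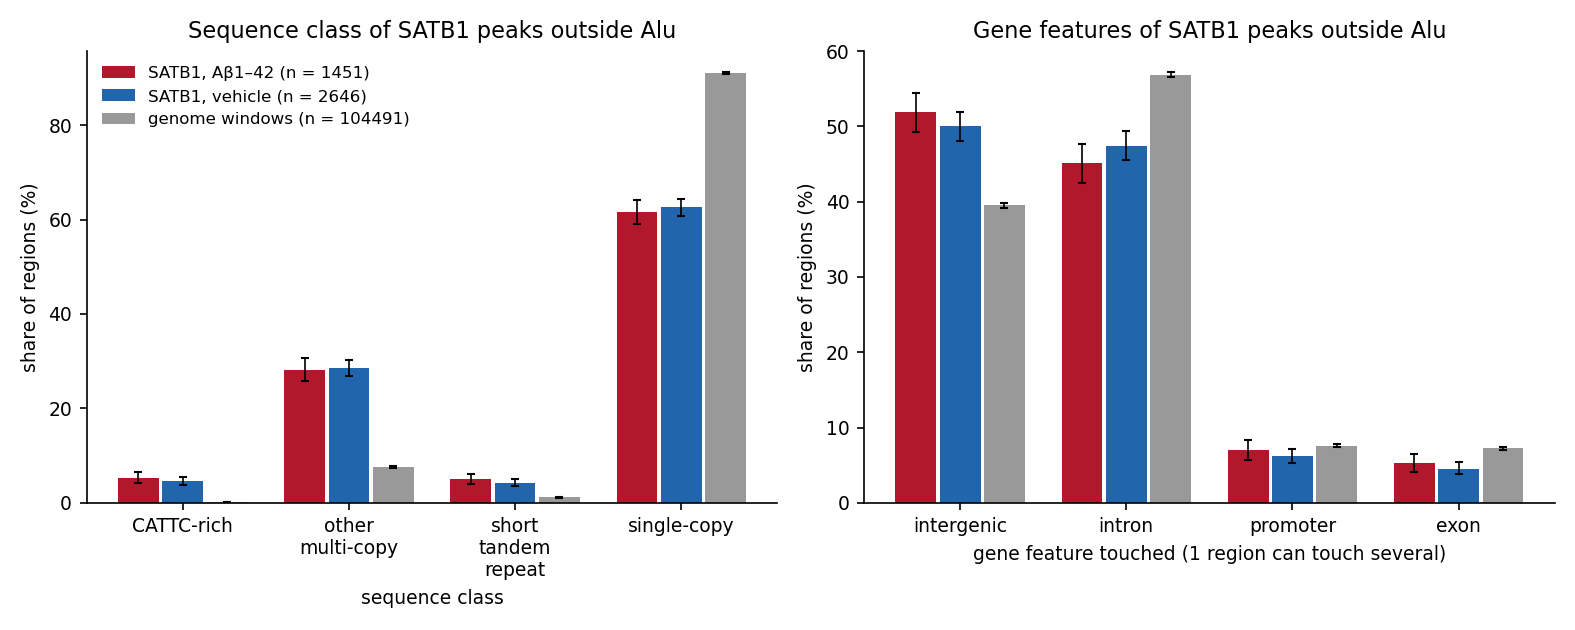
Left, share (%) of SATB1 Aβ1–42 peaks, SATB1 vehicle peaks and genome windows in each sequence class, all outside Alu. Right, share (%) touching each gene feature. Bars are shares and error bars exact 95% intervals. Single-copy sequence held 61.6% and 62.6% of the peaks against 91.0% of windows, and 51.9% and 50% of the peaks were intergenic against 39.5%.

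To group the repeats, all non-Alu SATB1 peaks of both treatments were compared with each other by blastn (e-value of 1e-10), and peaks linked by a match were joined. This gave 8 families of at least 10 peaks, which held 465 of the Aβ1–42 peaks. The largest family held 218 Aβ1–42 peaks (15.02%, 13.2 to 17.0%) and 348 vehicle peaks (13.2%, 11.9 to 14.5%). Around 95.6% of its peaks the sequence repeated itself at 171 nt or a multiple of it, within 2 nt, which is the repeat length of alpha satellite. All but 1 of the 218 peaks were intergenic, their median length was 136 nt and their median score 56.8.

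The alpha satellite-like peaks of the Aβ1–42 list were concentrated on a few centromeres. Chromosome 1 held 51, chromosome 5 held 41, chromosome 19 held 31 and chromosome 7 held 23. Chromosomes 1, 5 and 19 together held 123 of 218 (56.4%, 49.6 to 63.1%). In vehicle cells the same 3 chromosomes held 33 of 348 (9.48%, 6.62 to 13.1%), although the vehicle list was longer, and the family was most frequent on chromosomes 20 (39 peaks) and 22 (27 peaks). The difference was 46.9 percentage points (39.4 to 53.9). These chromosomes were singled out after their counts were seen. The alpha satellite arrays of chromosomes 1, 5 and 19 are known to be closely alike. In the peaks, chromosomes 1 and 5 shared 1019 of their 51-mers, 34.3% of the smaller set, and chromosomes 1 and 19 shared 43.8%. Other pairs of chromosomes were not compared, so these values do not set the 3 apart. A read from such arrays can be placed on any of them, so the chromosome given for a peak is uncertain among the 3. The ChAT lists did not show this pattern. Among peaks like this family outside Alu, chromosomes 1, 5 and 19 held 21 of 160 in the ChAT Aβ1–42 list (13.1%, 8.31 to 19.4%) and 27 of 271 in the ChAT vehicle list (9.96%, 6.67 to 14.2%).

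**Figure D2:**
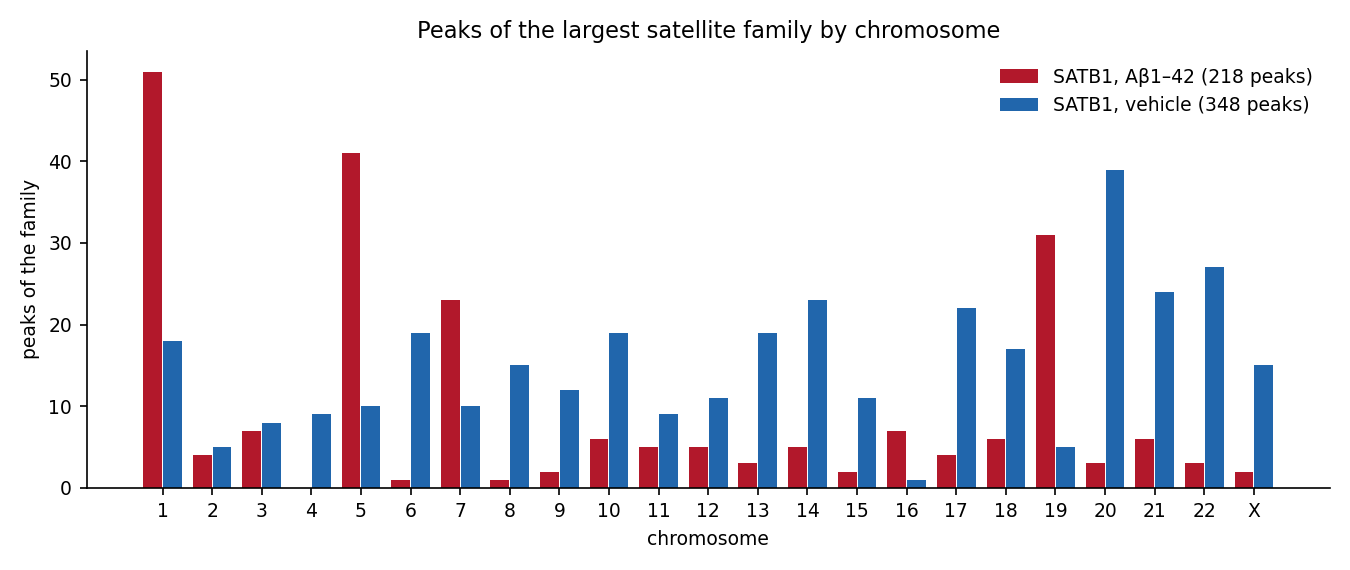
Number of peaks (y axis) of the alpha satellite-like family on each chromosome (x axis) for SATB1 after Aβ1–42 (218 peaks) and after vehicle (348 peaks). The Aβ1–42 peaks stand highest on chromosomes 1, 5, 19 and 7 (51, 41, 31 and 23), and the vehicle peaks on chromosomes 20 and 22 (39 and 27).

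The letters of the family differed accordingly. The 6-mer CGTTCA was in 93 of the 218 Aβ1–42 peaks (42.7%, 36.0 to 49.5%) but in 9 of the 348 vehicle peaks (2.59%, 1.19 to 4.85%), and of the 93 peaks 76 lay on chromosomes 1, 5 and 19. GAATGC went the other way, with 38 Aβ1–42 peaks (17.4%) and 215 vehicle peaks (61.8%). The chromosome 19 sequence printed above holds CGTTCA near its start, and so does the chromosome 17 sequence.

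A second family of 126 Aβ1–42 and 145 vehicle peaks was led by CATTC repeats. Among the Aβ1–42 peaks 66 were CATTC-rich, 14 were tandem repeats and 39 were single-copy, so the joining took in other low-complexity sequence as well. They lay mainly on chromosomes 10 (26 peaks), 4 (22) and 17 (14). This family held the strongest peak of the list with a score of 236. It was also the family most shared with other libraries: 46 of the 126 peaks overlapped a ChAT Aβ1–42 peak and 23 an SATB1 vehicle peak. The CATTC-rich peaks as a class were long, with a median of 530 nt against 121 nt for single-copy peaks.

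The third family, of 93 Aβ1–42 and 98 vehicle peaks, was interspersed. It lay on 23 chromosomes, and 51.6% of its Aβ1–42 peaks were in genes. Its sequences matched a copy of 6250 nt on chromosome 5 (127733914 to 127740163) that was hit by 282 of the 326 peaks of this and the smaller families. The length and spread are those of L1, and it is called L1-like here. Matched against that copy, 108 Aβ1–42 peaks (7.44%, 6.15 to 8.92%) and 205 vehicle peaks (7.75%, 6.76 to 8.83%) were L1-like, with 6.59% of genome windows. The shares differed by less than the counting error. The positions did not. Of the Aβ1–42 matches, 88 of 108 (81.5%, 72.9 to 88.3%) lay within 1500 nt of the end that most genome windows match. L1 copies are commonly cut short at their 5′ end, so this end is taken to be the 3′ end. In vehicle cells 92 of 205 (44.9%, 37.9 to 52.0%) lay there, close to the 50.1% of windows, and the difference was 36.6 percentage points (25.8 to 45.7). The densest stretch of 100 nt, from 1005 to 1104 nt of that end, held 22 of the 108 Aβ1–42 matches (20.4%, 13.2 to 29.2%), 2 of the 205 vehicle matches (0.976%) and 2.42% of the windows. It was chosen as the densest for Aβ1–42, so its count there is a description. The 22 peaks were on 12 chromosomes, all were multi-copy, 12 were in genes and none overlapped a ChAT Aβ1–42 or SATB1 vehicle peak. Their scores ran from 51.04 to 83.5. In the ChAT lists the stretch held 1 of 266 L1-like peaks after Aβ1–42 and 0 of 207 after vehicle, which allows up to 1.77% by the exact interval. The wider excess near the same end was also seen in the ChAT lists, with 75.6% (69.9 to 80.6%) after Aβ1–42 and 60.9% (53.9 to 67.6%) after vehicle.

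**Figure D3:**
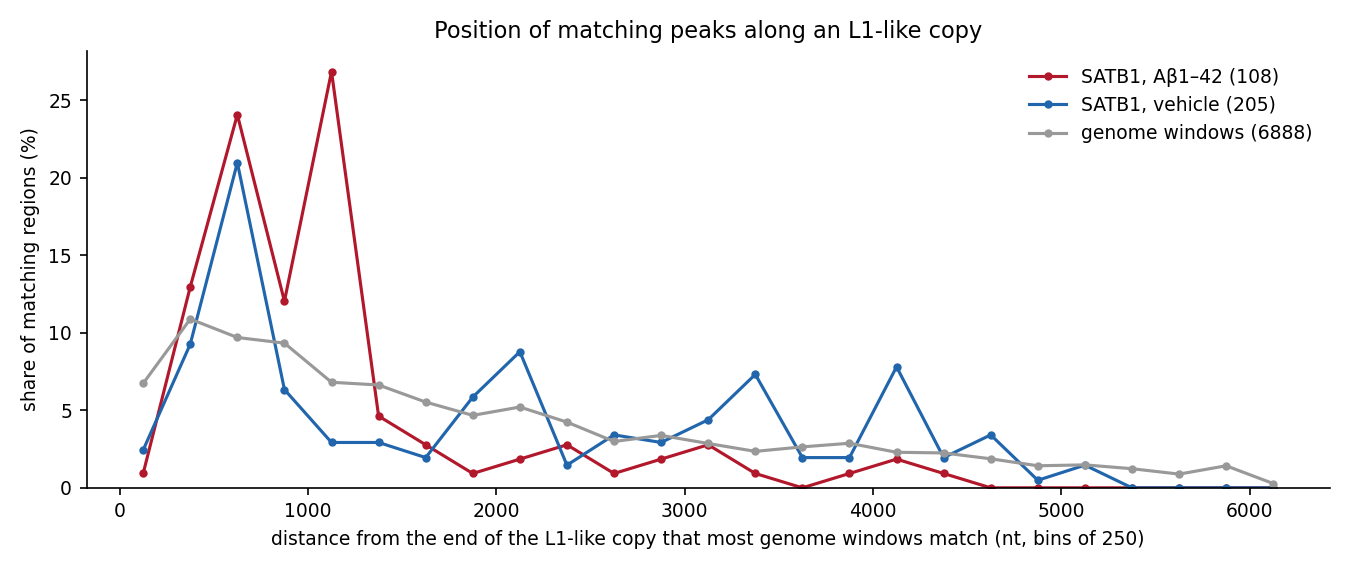
Share (%) of the peaks or windows that match an L1-like copy of 6250 nt, by distance in nt from the end that most genome windows match, in bins of 250 nt, for SATB1 after Aβ1–42 (108 peaks), SATB1 after vehicle (205) and genome windows (6888). The Aβ1–42 line has a peak of 26.9% at 1000 to 1250 nt, where vehicle has 2.93% and the windows 6.81%; both treatments rise at 500 to 750 nt (24.1% and 21.0%).

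Smaller families divided unevenly. Families of 42, 40 and 26 peaks held 6, 6 and 3 Aβ1–42 peaks, with intervals of their differences below 0. They were among the 326 peaks compared with the L1-like copy, of which 282 hit it. Most of their peaks were therefore L1-like too, and these counts are not separate from the L1-like positions above. A family of 17 peaks, 88.2% of which repeated at 76 nt or a multiple, held 13 Aβ1–42 peaks on 9 chromosomes and 4 vehicle peaks (difference 0.745 percentage points, 0.304 to 1.38). A family of 10 peaks held none from the Aβ1–42 list.

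For the place of the peaks in and around genes, no difference between treatments was resolved from 0 by counting. Of the 1451 peaks, 753 were intergenic (51.9%, 49.3 to 54.5%), against 50% after vehicle, a difference of 1.90 percentage points (-1.31 to 5.09). Introns were touched by 654 (45.1%), promoters (up to 2000 nt before a start site) by 101 (6.96%), and exons by 76 (5.24%). The differences from vehicle were -2.36 (-5.54 to 0.837), 0.8005 (-0.749 to 2.46) and 0.703 (-0.642 to 2.17) percentage points. Coding exons were touched by 21 peaks (1.45%, 0.898 to 2.20%), against 2.37% of windows. Relative to the windows, of which 39.5% were intergenic and 56.9% touched an intron, the list leaned away from genes. In the single-copy peaks this lean was small: 357 of 894 were intergenic (39.9%, 36.7 to 43.2%) against 37.6% of single-copy windows. Their median distance to the nearest start of a protein-coding transcript was 37.1 kb, against 45.6 kb for vehicle and 44.3 kb for windows. Where the peak lay in an intron of a MANE Select transcript, it was the first intron in 98 of 422 cases (23.2%, 19.3 to 27.6%), against 21.2% for vehicle and 24.6% for windows.

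Sequence composition separated the treatments more clearly than gene features did. The core of an SATB1 site, a C or G with at least 3 A or T on each side (either strand), was in 931 of the 1451 peaks (64.2%, 61.6 to 66.6%). It was in 72.1% of vehicle peaks and 78.7% of genome windows of 125 nt. Thus the core was less common in SATB1 peaks than in the windows, and least common after Aβ1–42. In single-copy peaks the shares were 62.6% (59.4 to 65.8%) after Aβ1–42 and 73.0% after vehicle, a difference of -10.4 percentage points (-14.2 to -6.56). Peak length bears on such a count, so peaks of 100 to 150 nt were taken alone. There the shares were 66.8% of 549 (62.7 to 70.8%) and 77.2% of 1005 (74.5 to 79.8%), with a difference of -10.4 (-15.1 to -5.70). Single-copy windows of 125 nt held the core in 78.7%. At this length the vehicle share was thus not resolved from the windows, and only the Aβ1–42 share lay below them. Base composition moved with it: median GC in single-copy peaks was 41.8% after Aβ1–42, 39.5% after vehicle and 38.4% in windows. Its part in the motif difference was not tested. TCCAT or TCCCAT, searched on both strands, was in 31.8% of the peaks (29.4 to 34.2%), 36.4% of vehicle peaks and 33.3% of windows.

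Over the whole list Alu sequence was near the peaks about as often as near the windows, and less often near vehicle peaks. An Alu match lay within 250 nt of 245 peaks (16.9%, 14.99 to 18.9%), against 11.7% after vehicle and 15.6% of windows, and the difference between treatments was 5.21 percentage points (2.97 to 7.54). In single-copy peaks it was 20.9% against 13.2%. An Alu match that ran at least 10 nt into the peak itself was found in 97 of 894 single-copy peaks (10.9%, 8.89 to 13.1%), 71 of 1656 vehicle peaks (4.29%, 3.36 to 5.38%) and 3.16% of single-copy windows. The difference was 6.56 percentage points (4.40 to 8.94). By the selection rule, the part of the Alu inside each of these peaks gave no match on its own. That rule set aside 4366 of 5817 SATB1 peaks after amyloid-β as Alu-matching, and 146 of 2792 after vehicle. How far the difference in edges follows from this was not tested. Over the whole list, edges made up 134 of the 245 matches within 250 nt, and 117 of 309 after vehicle. Such edges were more frequent in short peaks: 28 of the 127 single-copy peaks of up to 80 nt had one (22.05%, 15.2 to 30.3%), and 69 of the 767 longer ones (8.996%). The chromosome 7 sequence marked as an Alu end above begins with the last letters of an Alu and its run of A. With the 97 peaks left out, the SATB1 core was in 60.5% of single-copy peaks against 72.7% in vehicle, a difference of -12.2 percentage points (-16.3 to -8.18), so the lower share was as large without them.

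**Figure D4:**
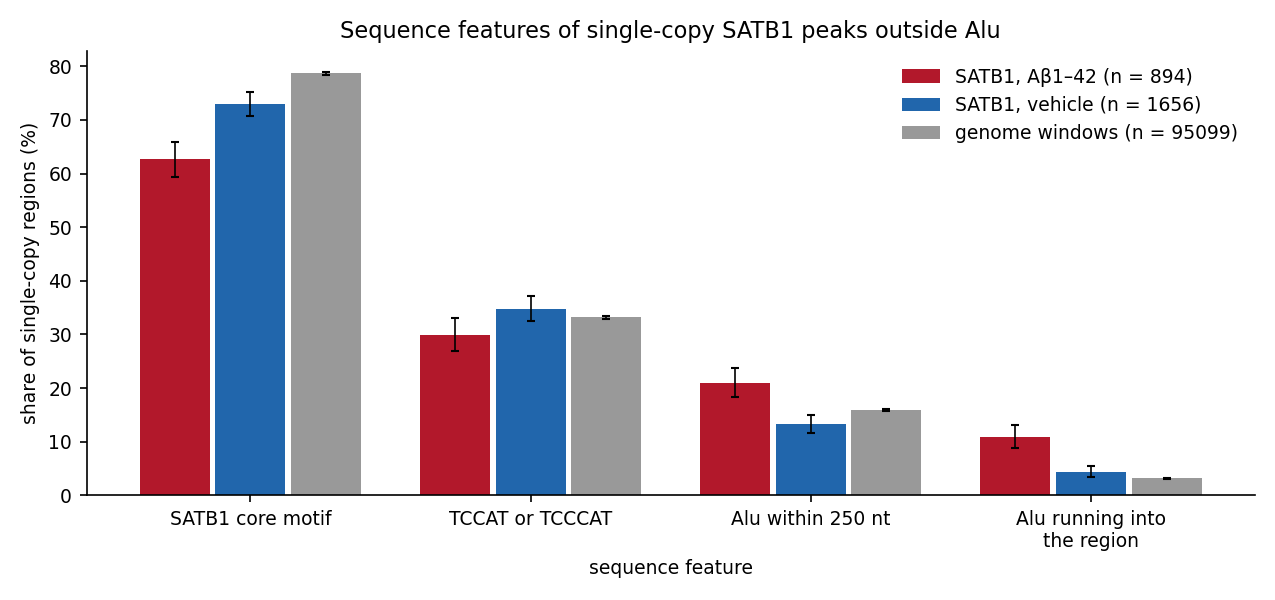
Share (%) of single-copy regions that hold the SATB1 core motif, TCCAT or TCCCAT, an Alu match within 250 nt, or an Alu match running at least 10 nt into the region, for SATB1 after Aβ1–42 (n = 894), SATB1 after vehicle (n = 1656) and genome windows (n = 95099). Bars are shares and error bars exact 95% intervals. The core motif was in 62.6% of Aβ1–42 peaks and 73.0% of vehicle peaks, and an Alu ran into 10.9% and 4.29%.

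Over all 6-mers, counted once per peak with both strands merged, 32 (1.54%) were in at least 2 times the share of Aβ1–42 peaks as of vehicle peaks, and 52 (2.5%) were in at least 2 times the share of vehicle peaks, among 6-mers in at least 1% of the list where they were more common. Several of those more common after Aβ1–42 were in the alpha satellite-like family. AGTCTG was in 165 Aβ1–42 peaks (11.4%) and 138 vehicle peaks (5.22%), and 101 of the 165 were in that family. GCAGAC was in 10.3% against 4.50%, with 106 of its 149 Aβ1–42 peaks in the family. GAATGC was less common after Aβ1–42, with 8.61% of peaks against 15.6%. In single-copy peaks alone the letters were partly the same and partly others. Over all peaks CACACA was in 23.8% after Aβ1–42 against 16.8% after vehicle, and GGAAAA in 8.41% against 14.7%. In single-copy peaks GTCTCA, which ends an Alu, was in 11.7% of Aβ1–42 peaks and 6.10% of vehicle peaks. Where an Alu ran into the peak it was in 53 of 97, and elsewhere in 52 of 797 (6.52%, against 4.48% of vehicle peaks). The A-rich 6-mers AGAAAA and GGAAAA were in 17.7% and 9.06% of single-copy Aβ1–42 peaks and in 25.8% and 16.5% of vehicle peaks. Without Alu edges the differences were -9.05 (-12.3 to -5.63) and -7.94 (-10.55 to -5.15) percentage points. CACACA, the letters of a common dinucleotide repeat, was higher in single-copy Aβ1–42 peaks, with 17.6% against 14.2% and 9.94% in windows.

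Few of the sites were SATB1 sites in vehicle cells. Of the 1451 peaks, 39 overlapped an SATB1 vehicle peak by at least 1 nt (2.69%, 1.92 to 3.66%). From the other side, 41 of the 2646 non-Alu vehicle peaks met a member (1.55%, 1.11 to 2.10%). CATTC-rich peaks made up 25 of the 39, and 32.9% of that class was shared (22.5 to 44.6%). Of the 894 single-copy peaks 6 were shared (0.671%, 0.247 to 1.46%). They were in introns of ANAPC16, a subunit of the anaphase-promoting complex, AMPH, which codes for the endocytic protein amphiphysin, and PLEKHG4B, and at 3 intergenic places on chromosomes 5, 10 and 18. Their scores ran from 51.2 to 69.9, and 4 of the 6 were below the median of the list. The ANAPC16 peak, printed above, had an Alu match within 250 nt and held the letters of an Alu end itself. The genes with multi-copy or CATTC-rich shared peaks were ERICH1, SH3RF3, CDH13, which codes for T-cadherin, PTPRN2 and SBF2.

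More of the sites were shared with ChAT in the same treated cells than with SATB1 in vehicle cells. The lists differed in length, with 6563 ChAT Aβ1–42 peaks and 3065 SATB1 vehicle peaks on all sequences. No level of overlap by chance was computed. Each treatment had 1 input library for both proteins, and its part in the overlap was not tested. ChAT Aβ1–42 peaks overlapped 179 of the 1451 (12.3%, 10.7 to 14.1%), and ChAT vehicle peaks 124 (8.55%, 7.16 to 10.1%). From the other side, 185 of 5654 non-Alu ChAT Aβ1–42 peaks met a member (3.27%, 2.82 to 3.77%). The class mattered: 56.6% of CATTC-rich peaks, 3.67% of other multi-copy peaks and 11.1% of tandem repeats overlapped ChAT after Aβ1–42. Single-copy peaks overlapped ChAT Aβ1–42 peaks in 113 of 894 cases (12.6%, 10.53 to 15%) and ChAT vehicle peaks in 53 (5.93%, 4.47 to 7.68%), with 17 in both. The single-copy vehicle SATB1 peaks leaned to ChAT of their own treatment too and did so more, with 363 of 1656 (21.9%, 19.9 to 24.0%) on ChAT vehicle peaks and 30 (1.81%, 1.23 to 2.58%) on ChAT Aβ1–42 peaks. For ChAT of the same treatment, the difference in share, Aβ1–42 less vehicle, was -9.28 percentage points (-12.2 to -6.25). The ChAT lists outside Alu differed in length, with 5654 peaks after Aβ1–42 and 6656 after vehicle. The 113 single-copy peaks on ChAT Aβ1–42 peaks had a median score of 71.0 (quartiles 64.3 and 90.4), and the other 781 one of 67.4 (59.99 and 74.4). Their median GC was 42.1% and 41.8%.

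**Figure D5:**
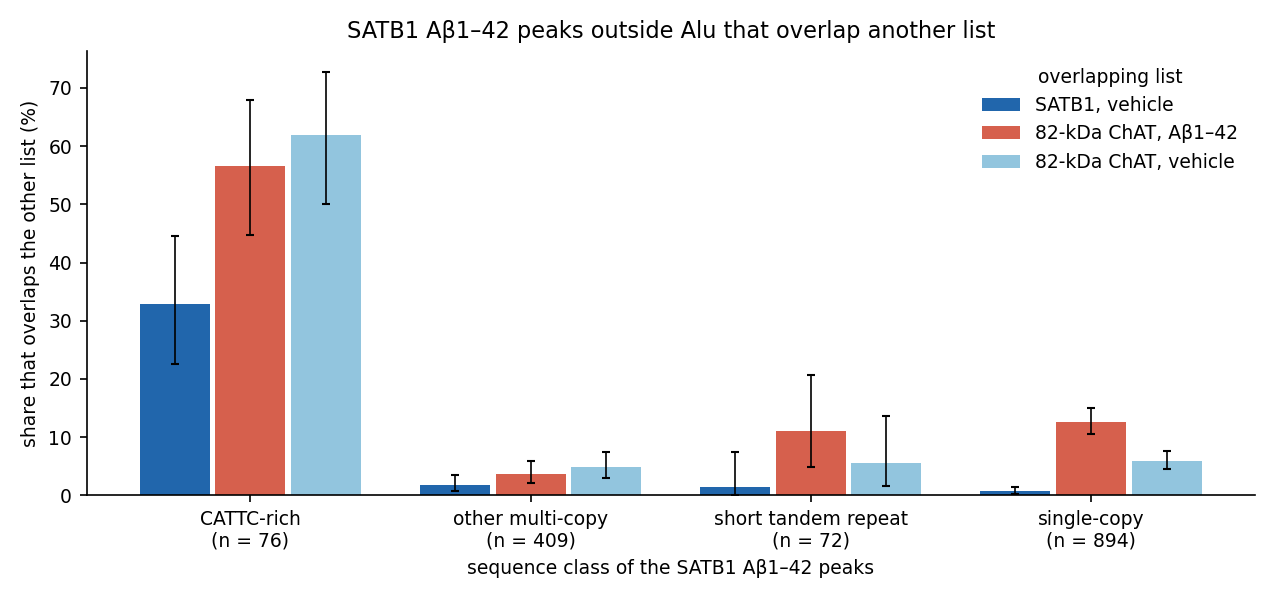
Share (%) of SATB1 Aβ1–42 peaks outside Alu, by sequence class, that overlap a peak of SATB1 after vehicle, ChAT after Aβ1–42 or ChAT after vehicle by at least 1 nt. Bars are shares and error bars exact 95% intervals. CATTC-rich peaks overlapped most (32.9%, 56.6% and 61.8%), and in single-copy peaks overlap with ChAT Aβ1–42 (12.6%) stood above that with ChAT vehicle (5.93%) and SATB1 vehicle (0.671%).

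In all, 759 annotated genes held a peak. Of 19970 protein-coding genes, 507 (2.54%) held one, and 895 (4.48%) held a non-Alu vehicle peak. Both were true of 106 genes, which is 20.9% of the first set and 11.8% of the second. Genes with a peak were long, with a median of 135 kb against 27.5 kb for all protein-coding genes, and long genes offer more room in both lists. PTPRN2, whose product sits in the membrane of dense-core vesicles, held 7 peaks, spread from intron 1 to intron 12, with scores of 50.2 to 71.1. It held 8 peaks after vehicle, and 1 of the 7 overlapped one of these. SDK1, a sidekick adhesion protein that guides synaptic partner choice, held 3 peaks and none after vehicle. The peak in intron 4, which was also in the third, L1-like family, scored 138.6, the one in intron 22 scored 56.0 and overlapped ChAT after Aβ1–42, and the one in intron 44 scored 57.0. SDK2, the other member of this gene pair, held 2 peaks, in introns 39 and 10, with scores of 136 and 53.9, and 1 vehicle peak. DMD, which codes for dystrophin, and TTC34 held 3 each in both treatments. The 3 in TTC34 were all multi-copy, as was the DMD peak in intron 55. TEX2, CDH4, KIAA0825, TFEC and TBC1D22A held 2 each. Of these, CDH4, which codes for R-cadherin, held 2 vehicle peaks as well, and the other 4 held none. Both CDH4 peaks and the KIAA0825 peak in intron 20 were multi-copy. The TBC1D22A peak that scored 76.0 was a short tandem repeat.

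The strongest peaks in protein-coding genes outside satellites and multi-copy sequence were mostly short. After SDK1 and SDK2 came the tandem repeat in intron 15 of TYW1, a tRNA-modifying enzyme, at 132. MED13, a subunit of Mediator, had a peak of 70 nt in intron 2 that scored 129.9 and overlapped ChAT after Aβ1–42. DOCK1, an activator of Rac, had one in intron 30 that also overlapped ChAT. RABEP1, a Rab5 effector of early endosomes, ASTL, an egg protease, and STXBP5L, a brake on vesicle release of the tomosyn type, shared its score of 124.1. None of these had an overlap with an SATB1 vehicle peak. Among peaks shared with ChAT after Aβ1–42, those in CEP41, a protein of cilia, and AGO3, an Argonaute, scored 115.3 and 113. Those in the cadherin CDH18, the zinc finger gene HIVEP3, the matrix protein gene NPNT, the cell cycle gene CDC16 and the formin gene DIAPH2 scored from 102 to 113.1. The HIVEP3 peak was a short tandem repeat.

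Exons of protein-coding genes were touched by 47 of the peaks, in 49 genes, and their promoters by 52 peaks, in 52 genes. The strongest was in an exon outside the coding sequence of NARF, a protein that binds prelamin A, at chr17:82489120-82489341 with a score of 115.45. This peak overlapped ChAT after Aβ1–42 and had a GC of 63.96%. The CEP41 peak touched an exon 284 nt from a start of that gene. The peak upstream of OR4M1, printed above, lay 1547 nt from its start, with a GC of 29.03%. Exons outside coding sequence were touched in TMEM170B (99.0) and in SSU72 (90.4), a phosphatase of RNA polymerase II. A coding exon of FAM90A8 was touched by a multi-copy peak (87.9), and since this gene has near-identical copies its position is uncertain. Promoter peaks lay 550 nt from a start of CIAO3, which serves iron-sulfur protein assembly, and 104 nt from a start of DMBT1. Further promoter peaks were those of GYG1, the primer of glycogen synthesis, at 1508 nt, and of COL5A1, a collagen gene, at 1931 nt. The last 2 overlapped ChAT after Aβ1–42, and that of COL5A1 was multi-copy.

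Lists of neuronal genes were read per length as well as per gene. Synaptic adhesion genes held a peak in 8 of 40 (20%) and a vehicle peak in 15, against 2.54% and 4.48% of all protein-coding genes, but these genes had a median length of 738 kb. Per Mb of gene the list held 0.338 peaks, below the 0.398 of all protein-coding genes. Its highest peaks were in CNTN6 (85.4), CNTNAP5 and IL1RAPL1 (83.7 each) and CADM1 (74.4). Synaptic scaffold and release genes held one in 6 of 37, with 0.325 per Mb, among them RIMS2, which organises vesicle release sites (99.9), DLG2 (91.0), MAGI2 (90.4, overlapping ChAT after Aβ1–42) and ERBB4 (72.3). The RIMS2 peak was a short tandem repeat. Glutamate and GABA receptor genes held one in 5 of 27 and 0.412 per Mb, led by the AMPA receptor gene GRIA3 (102.65) and the kainate receptor gene GRIK2 (97.6, overlapping ChAT after Aβ1–42). The GRIK2 peak was assigned to no intron of a MANE Select transcript. GRID1 had a peak of 67.5. Ion channel genes held one in 6 of 40 and 0.419 per Mb, with 2 in RYR3, the ryanodine receptor (74.2 and 69.5), and 1 each in KCNH1, KCNH8 and CACNA1D. Axon guidance genes held one in 4 of 38 and 0.287 per Mb: EPHA6, EPHB1, ROBO2 and SLIT1, with scores of 58.0 to 77.0.

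Cadherins and catenins stood higher, with a peak in 8 of 26 genes and 0.649 per Mb from 10 peaks, the same count as after vehicle, when the level of all genes was 0.740 per Mb. Besides CDH18 and CDH4 they were led by CTNNA3 (86.9) and CDH13 (74.8). The CDH4 and CDH13 peaks were multi-copy, so their positions are uncertain. Genes of APP binding and processing held 6 peaks in 5 of 31 genes, or 0.827 per Mb, with the same number of peaks and of genes after vehicle. NAE1, the APP-binding subunit of the NEDD8-activating enzyme, had one of 102.8, and the adaptor gene APBA1 had 2 in intron 1 (73.5 and 59.7) with none after vehicle. The APBA1 peak of 73.5 was a short tandem repeat. DAB1 and LRP1B had 1 each (64.7 and 64.4), against 1 and 2 after vehicle, and APBB1 had 1. The NAE1 and DAB1 peaks lay within the annotated genes but were assigned to no intron of a MANE Select transcript. Of the 7 Alzheimer disease risk genes looked at, MAGI2 and GAB2 (68.6) held a peak, and MAGI2 and EFNA5 held one after vehicle, or 0.749 per Mb in each list. Genes of programmed cell death held one in 3 of 40, among them BIRC6 (83.7) and BCL2L1 (59.3), and 3 held one after vehicle, or 0.614 per Mb in each list. The BIRC6 peak was also in the second family, led by CATTC repeats. Chromatin and nuclear matrix genes held 1, in the cohesin gene STAG1 (71.7, multi-copy), or 0.158 per Mb, against 0.475 after vehicle. None of the 26 cholinergic genes held a peak, and 2, CHAT and CHRM3, held one after vehicle. The cholinergic genes covered only 1.75 Mb, and all protein-coding genes held 0.398 peaks per Mb, so few peaks could fall there in either list. Very long genes held 17 peaks in 9 of 20 genes, 7 of them in PTPRN2, against 36 after vehicle. No test compared these lists, and counts of this size move with a few peaks.

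Along the chromosomes, single-copy peaks had a mean density of 0.295 per Mb. They were densest on chromosome 17 (0.625 per Mb, 52 peaks), chromosome 7 (0.521, 83 peaks), chromosome 20 (0.403) and chromosome 1 (0.398), and sparsest on chromosomes 14 (0.149) and 18 (0.174). The vehicle list, with a mean of 0.546 per Mb, was densest on chromosomes 7 (0.960) and 20 (0.698) and had 0.540 on chromosome 17. SH-SY5Y is known to carry extra copies of chromosome 7 and of parts of chromosomes 1, 2 and 17, and copy number was not measured here.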

How the data were processed

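Peaks of SATB1 and 82-kDa ChAT were taken from 4 deposited lists, 1 library each, of SH-SY5Y cells. The deposited score is that of MACS, -10 times the log10 of p. The authors mapped reads to hg38 with BWA, per the labels, called peaks with MACS and discarded those that the input also gave. The study's methods also name masking of repeats at this step, without saying how, yet satellite, L1-like and Alu sequence is present in the deposited peaks, so what was masked is not known. BWA places a read that fits several repeat copies on 1 of them, so positions within repeats are less certain than sequences. The study's methods give 1 range of read numbers for all samples; separate figures for each library are not given in the sources used here.

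Sequences were read from hg38 and genes from GENCODE 44, on chromosomes 1 to 22 and X. Alu matches used blastn 2.17.0 with either strand. Other work used Python 3.11.15, numpy 2.4.6, pandas 2.3.3, scipy 1.17.1 and pysam 0.24.0. Genome windows were consecutive stretches of 125 nt, every 200th taken, without undetermined bases. Shares carry exact Clopper-Pearson intervals at 95%, and differences of shares Newcombe intervals, for counting error only. Overlap meant at least 1 shared nt. Families were joined through matches at 1e-10. The repeat period of a family was the lag, up to 400 nt, at which the widened sequence best matched itself. The procedures were tested on simulated data.

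The peaks and gene lists were chosen with earlier results of these data known. Named genes were protein-coding genes with the most peaks, the highest scores outside satellites and multi-copy sequence, the highest scores in exons or promoters, or the highest scores among peaks shared with ChAT Aβ1–42 (up to 10 each), all with peaks shared with SATB1 vehicle up to 10, and up to 4 per gene list. The family of L1-like peaks, the chromosomes of the alpha satellite-like family, the Alu edges and the sequences of a shared CATTC-rich and a chromosome 19 peak were looked at after the data were seen. The position and sequence of the peak in APP, and some other named items, are not reported here.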

Additional observations from a re-analysis of the deposited data

How the results depend on the processing

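Each of 18 results was recomputed under alternatives, 116 in all, and 90 stayed within the main interval or within 1.5 times the main count. The differences among them were those in gene features, whose main intervals all included 0; the differences in chromosomes of the alpha satellite-like family, in position along the L1-like copy and in Alu edges were not recomputed under these alternatives. With scores at or above the median of the list, 671 peaks remained, 405 genes held one, the exon difference was -0.725 percentage points (main 0.703, neither resolved from 0), ChAT Aβ1–42 overlap was 17.0%, the multi-copy share 18.3%, the Alu nearby share 21.6%, the median length 113 nt and 131 of the 6-mers differed 2-fold. Without CATTC-rich peaks, overlap was 1.02% with SATB1 vehicle and 9.89% with ChAT Aβ1–42, the share with a tandem run was 6.40% (main 9.65%) and with TCCAT 28.4%. Without multi-copy peaks, ChAT Aβ1–42 overlap was 15.2%, median length 123 nt, median GC 41.1%, the Alu nearby share 21.5%, and 55 6-mers differed (main 84). An Alu threshold of 1e-10 gave an Alu nearby share of 22.2%. It added 99 peaks that match Alu at 1e-05 themselves and so count as having Alu nearby. Taking 500 nt on each side gave a share of 24.4%. With at least 1 pentamer per 100 nt the CATTC-rich share was 13.9%, with any repeated 51-mer the multi-copy share was 42.2%, and with runs of at least 30 nt the tandem share was 5.31%. Added after the data were seen, single-copy peaks alone gave 0.671% overlap with SATB1 vehicle and an Alu nearby share of 20.9%, and peaks of 100 to 150 nt a multi-copy share of 22.5% and an SATB1 core share of 66.8%. The cause of these shifts was not tested, beyond the peaks each alternative removes or adds.

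No paired analysis was possible because each protein and treatment had 1 library and no test was made. With 1 library a group, variation between cultures is unmeasured, and a depth known only as a range for all samples limits what an absent peak means.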
